A study of Mus musculus with 20 samples.

Results

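The regions described here are stretches of open chromatin that ATAC-seq found in the mesenchyme of the embryonic intestine, both with and without *Eed*, and did not find in the mesenchyme of the stomach. Peaks from the 4 deposited lists, 1 for each organ in each genotype, were merged wherever they overlapped by at least 1 bp, which gave 162108 regions. Of these, 4384 (2.70%) held a peak from each intestinal list and none from either stomach list. They are called intestine-restricted regions below. The regions were chosen by the presence or absence of a called peak, so their peak values are given as a description and carry no test.

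The embryonic samples were GFP+ mesenchymal cells sorted at E13.5 from mice labelled C57BL/6, although the study's methods describe mixed strain backgrounds. Control embryos carried Bapx1-cre with the Rosa26mTmG reporter, and *Eed* KO embryos carried the same alleles and Eedfl/fl. *Bapx1*-Cre, active in the mesenchyme of the early gut, and 1 copy of the Cre allele were therefore common to both genotypes, and the control embryos carried no floxed *Eed*. ATAC-seq was made from 2 samples of each of the 4 conditions, whose reads were pooled before peaks were called, so no peak has a replicate value. RNA-seq was made from 2 libraries of each condition, and nothing in the labels says which libraries share embryos. Adult RNA-seq covered 2 libraries labelled WT and 2 labelled EED-KO from the intestinal mesenchyme. In the adult mice, of about 10 weeks, a Pdgfrβ Cre-ERT2 allele and the reporter were present in both genotypes, Eedfl/fl was added in the KO, and tamoxifen switched the Cre on.

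*Eed* encodes a core subunit of Polycomb Repressive Complex 2 (PRC2), the enzyme that trimethylates lysine 27 of histone H3 and keeps developmental genes silent. Open chromatin away from promoters often marks enhancers, which act on genes at a distance and differ between tissues more than promoters do. In the gut tube, posterior HOX and CDX factors, homeobox proteins that give position along the body axis, and regional mesenchymal factors such as NKX2-3 in the intestine and BARX1 in the stomach help to set organ identity.

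The targeted gene was checked first. *Eed* stood at 38.1 and 40.1 CPM (counts scaled to library size by TMM) in the control intestine and at 10.7 and 8.58 CPM in the *Eed* KO intestine. Stomach libraries stood at 40 and 41.5 CPM in the controls and at 11.4 and 7.40 CPM in the KO. In the adult libraries it was at 29.6 and 33.4 CPM in the controls and at 25.6 and 25 CPM in the KO. Counts on genes lay between 30236159 and 39606157 in the 8 embryonic libraries. Summed markers of mesenchyme reached 11300 to 19300 CPM over the 9 genes listed, against 34.1 to 70.6 CPM for 8 epithelial markers and 0.493 to 3.73 CPM for the 5 leukocyte markers found in the files. Markers of smooth muscle reached 1820 to 5520 CPM, of mesothelium 304 to 494 CPM and of enteric neural crest 55.3 to 208 CPM. Mesenchymal markers thus had the highest sums, and other cell types of the gut wall were present too.

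The sequences of 7 intestine-restricted regions are shown, read from the plus strand of GRCm38, to give the DNA behind the regions that the results turn on. They are the region nearest *Nkx2-3*, the widest region of all (upstream of *Mab21l2*), a region inside *Glp2r*, the widest of those beside *Lef1*, the region beside *Barx1*, the most enriched region of all (in an intron of *Dlg2*) and a strong region in an intron of *Ubap1*. Regions longer than 300 bases are shown by their central 300 bases. Capitals mark 3 short motifs on either strand, TTTATGG of posterior HOX and CDX factors, TGACAG of MEIS and other TALE factors, and TGTTTAC of forkhead factors, or the reverse complement, which reads CCATAAA for the first, CTGTCA for the second and GTAAACA for the third.
*Nkx2-3* region, chr19:43643029-43643328: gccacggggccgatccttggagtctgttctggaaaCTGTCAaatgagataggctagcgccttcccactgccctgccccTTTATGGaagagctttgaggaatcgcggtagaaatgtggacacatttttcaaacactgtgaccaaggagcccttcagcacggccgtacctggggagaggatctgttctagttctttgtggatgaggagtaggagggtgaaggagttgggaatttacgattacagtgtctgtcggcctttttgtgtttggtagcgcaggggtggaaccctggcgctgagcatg
*Mab21l2* region, chr3:86557277-86557576: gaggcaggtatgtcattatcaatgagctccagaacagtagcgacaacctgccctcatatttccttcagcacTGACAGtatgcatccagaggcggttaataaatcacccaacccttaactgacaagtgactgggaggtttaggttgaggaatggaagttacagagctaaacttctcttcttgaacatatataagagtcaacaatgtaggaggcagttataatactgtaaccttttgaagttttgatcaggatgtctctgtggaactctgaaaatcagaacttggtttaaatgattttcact
*Glp2r* region, chr11:67732181-67732480: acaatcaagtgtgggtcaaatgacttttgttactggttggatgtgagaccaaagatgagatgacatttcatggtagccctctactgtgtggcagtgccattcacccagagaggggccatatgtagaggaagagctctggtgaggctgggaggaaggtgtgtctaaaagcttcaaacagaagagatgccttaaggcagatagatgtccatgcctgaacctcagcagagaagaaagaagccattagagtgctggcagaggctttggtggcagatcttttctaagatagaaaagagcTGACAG
*Lef1* region, chr3:131078960-131079259: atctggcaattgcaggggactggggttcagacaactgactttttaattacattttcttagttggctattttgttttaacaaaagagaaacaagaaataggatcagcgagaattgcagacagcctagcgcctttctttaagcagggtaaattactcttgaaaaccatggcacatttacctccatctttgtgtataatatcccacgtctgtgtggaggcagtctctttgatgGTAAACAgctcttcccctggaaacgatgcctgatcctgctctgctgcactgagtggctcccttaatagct
*Barx1* region, chr13:48697388-48697561: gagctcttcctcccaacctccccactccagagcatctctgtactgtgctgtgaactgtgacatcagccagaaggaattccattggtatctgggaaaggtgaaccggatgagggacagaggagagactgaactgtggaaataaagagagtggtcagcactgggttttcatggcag
*Dlg2* intron, chr7:91267876-91268040: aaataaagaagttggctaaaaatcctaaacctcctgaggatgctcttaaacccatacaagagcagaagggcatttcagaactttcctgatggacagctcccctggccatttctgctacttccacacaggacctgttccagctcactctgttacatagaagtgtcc
*Ubap1* region, chr4:41359315-41359614: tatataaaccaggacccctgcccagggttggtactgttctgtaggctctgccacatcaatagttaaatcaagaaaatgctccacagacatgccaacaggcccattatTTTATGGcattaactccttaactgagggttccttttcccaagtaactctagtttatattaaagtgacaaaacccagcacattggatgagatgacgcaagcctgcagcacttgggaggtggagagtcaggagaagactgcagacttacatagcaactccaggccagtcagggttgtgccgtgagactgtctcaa

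The *Nkx2-3* window held a posterior HOX and CDX heptamer at bases 79 to 85, counted from the first base printed, and a MEIS hexamer on the minus strand at bases 36 to 41. The *Ubap1* window held the HOX and CDX heptamer at bases 108 to 114. The MEIS hexamer stood at bases 72 to 77 of the *Mab21l2* window and at the far end of the *Glp2r* window, and the forkhead heptamer stood on the minus strand at bases 231 to 237 of the *Lef1* window. The *Barx1* and *Dlg2* sequences held none of the 3 motifs. A match of letters is a description and not evidence that a factor binds.

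The intestine-restricted regions were narrower and more weakly enriched than the regions present in all 4 lists. Median width was 424 bp, with quartiles at 272 bp and 749 bp, against 1030 bp for the 74635 regions in all 4 lists. Regions with a peak in both stomach lists and in neither intestinal list had a median width of 480 bp. Those found in the control intestine alone had 230 bp, so narrowness was not particular to the intestine-restricted regions. Fold enrichment of the intestine-restricted regions over the local background, as called by MACS2, had a median of 2.92 in the control intestine. For the *Eed* KO intestine it was 2.83, whereas the regions in all 4 lists had medians of 4.48 and 4.28. For each region the smaller of its 2 −log10 q values, the significance of the peak, had a median of 1.96. Both values reached 2 in 2116 regions (48.3%), 4 in 475 regions (10.8%) and 10 in 19 regions. The ratio of the *Eed* KO to the control fold enrichment had a median of 0.970, with 5th and 95th percentiles of 0.723 and 1.32, and 1831 regions (41.8%) were higher in the KO. Across the 4384 regions the enrichments had a Pearson r of 0.538, a description over regions that share 2 pooled libraries.

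**Figure D1:**
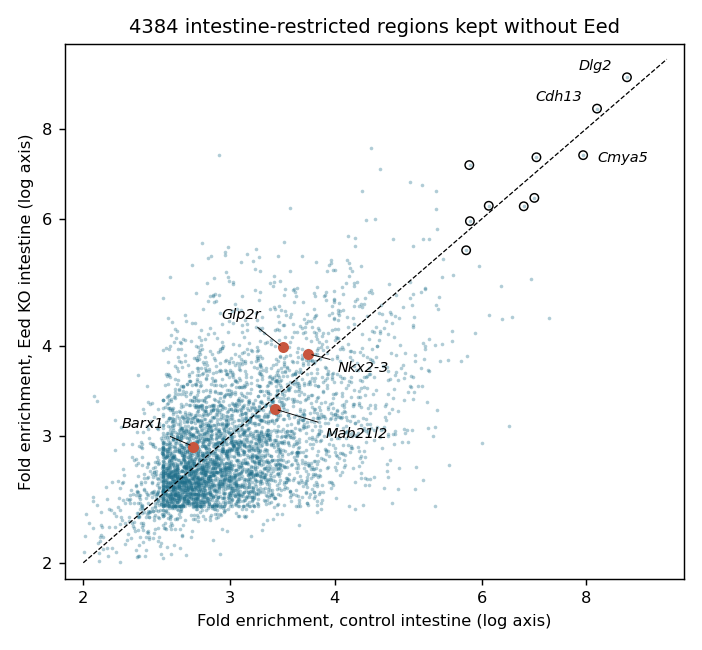
Each point is 1 of the 4384 intestine-restricted regions, placed by its fold enrichment in the control intestine (x axis) and in the *Eed* KO intestine (y axis), both on log axes, with the line of equal values dashed. Open circles are the 10 regions with the largest smaller value, and red points mark 4 regions beside genes named in the text; the quartiles are 2.65 and 3.34 in the control and 2.58 and 3.24 in the KO.

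Many members lay near the threshold for calling a peak. Just outside it were 4003 regions with a peak in both intestinal lists whose stomach peaks all had a −log10 q below 2, with a median of 1.65 in the stomach. Also outside were 6365 regions found in the control intestine alone, whose −log10 q had a median of 1.88 and which were narrower, at 230 bp. Inside it, the lowest −log10 q was 1.02. The nearest peak of a stomach list was at a median of 4303 bp from a member, with 166 members (3.79%) within 1 kb of one and 22.7% farther than 10 kb.

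Of the 10 most enriched members, 6 lay inside genes and 4 between genes. The strongest, 165 bp in an intron of *Dlg2*, had a fold enrichment of 8.96 in the control intestine and 9.44 in the *Eed* KO intestine. Next came 904 bp in an intron of *Cdh13*, a cadherin gene, at 8.25 and 8.54, followed by 628 bp in an intron of *Cmya5*, a gene of striated muscle, at 7.94 and 7.36. A region of 487 bp in an intron of *Ubap1*, an endosomal sorting gene, stood at 6.94 and 6.42, and 236 bp located 36683 bp upstream of *Klf7*, a Krüppel-like factor gene, stood at 6.98 and 7.31. These regions were picked by the smaller of their intestinal fold enrichments, which favours similar values in control and KO. The absence of a stomach peak was the rule of membership, so neither feature is a finding.

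Most members lay away from promoters. Of the 4384, 120 (2.74%) were within 1000 bp of an annotated start, 393 (8.96%) overlapped an exon, 1962 (44.8%) lay in introns and 1909 (43.5%) between genes. Among regions in all 4 lists 20.6% were at promoters, whereas the 6296 stomach-restricted regions, found by the mirror of the same rule, had 2.51% at promoters, 41.1% in introns and 48.9% between genes. The median distance to the nearest annotated start was 31026 bp for the members, 35098 bp for the stomach-restricted regions and 16604 bp for the regions in all 4 lists. The placement of the members thus resembled that of the stomach-restricted regions and of those in the control intestine alone (2.23% at promoters).

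**Figure D2:**
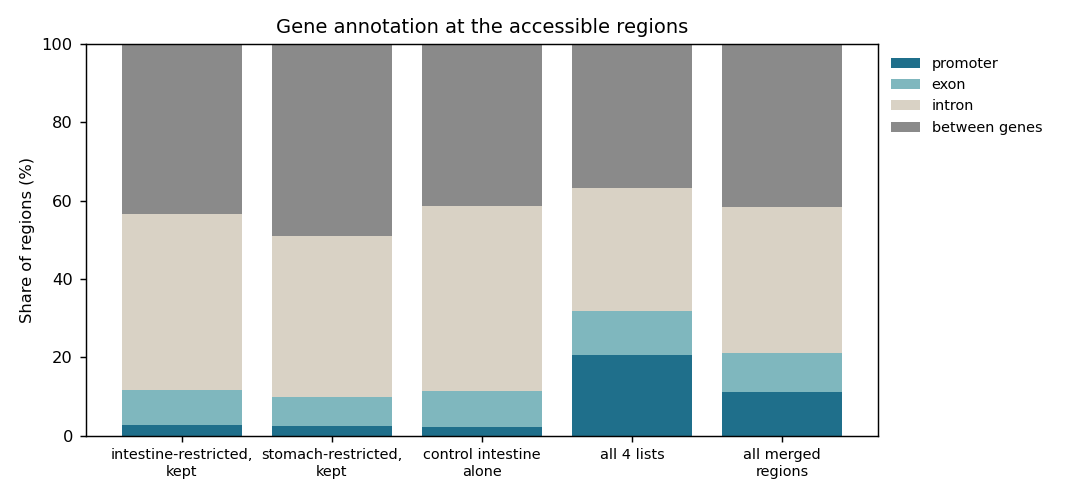
Bars give the share of regions (y axis, in percent) at promoters (within 1000 bp of a start), in exons, in introns and between genes for 5 sets of merged regions (x axis). Promoters make up 2.74% of the intestine-restricted regions kept without *Eed*, 2.51% of the stomach-restricted ones and 20.6% of the regions in all 4 lists.

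Members were spread over all chromosomes with peaks, making up 2.06% of the merged regions on chromosome X and between 2.26% and 3.18% on each autosome. Joined across gaps of up to 50 kb they formed 3758 groups, of which 3262 were single regions, 98 had 3 or more and 9 had 5 or more. The largest group, 6 members among 18 merged regions, lay at chr9:29671884-29787695 beside *Ntm*, which encodes neurotrimin, an adhesion molecule of neurons. Groups of 5 were found beside *Foxp1*, a forkhead gene, at chr6:99289586-99361092 and beside *Cux2*, a homeobox gene, at chr5:121923030-122015392. These groups were interleaved with regions of other patterns, since the *Foxp1* group held 15 merged regions in all and the *Cux2* group 24.

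Short motifs were counted on both strands of a 300-base window at the centre of every region, so that each contributed the same length. Where a region was narrower, the window took in flanking DNA. The window of the *Dlg2* region, for example, held a forkhead motif that the region itself does not. The posterior HOX and CDX heptamer TTTATGG was found in 6.89% of the members, in 4.77% of the stomach-restricted regions, in 3.79% of the regions in all 4 lists and in 4.30% of all merged regions. The forkhead heptamer TGTTTAC was in 6.66% of the members and 4.89% of the stomach-restricted regions, and the nuclear receptor motif AGGTCA in 17.8% and 14.2%. Regions of the control intestine alone had higher shares of both, 7.84% and 18.8%, and 5.33% for the HOX and CDX heptamer. Those in all 4 lists had 4.85% for the forkhead and 15.4% for the nuclear receptor motif. In the other direction, the homeodomain core TAATTA was in 5.18% of the members and 8.36% of the stomach-restricted regions, the NKX2 motif CACTTAA in 3.47% and 5.35%, and the E-box CAGCTG of MYOD and TCF factors in 20.8% and 24.4%. In the control intestine alone these shares were 6.50%, 4.57% and 28.5%. In the regions in all 4 lists they were 5.17%, 3.21% and 22.7%. For the homeodomain and NKX2 motifs the members were thus near the regions in all 4 lists, and the stomach-restricted regions were higher. By peak strength, the HOX and CDX share was 7.18% of the 2116 members with both −log10 q values of at least 2 and 6.74% in the 475 with at least 4.

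Of the remaining 8 motifs, the motif AGATAA of GATA factors was in 15.5% of the members against 17.6% of the stomach-restricted regions, the HAND and TWIST E-box CATCTG in 27.4% against 27.9%, AP-1 (TGANTCA) in 11% against 11.8%, and SOX (ACAAAG) in 23.0% against 24.2%. TEAD (GGAATG) was in 23.3% against 21.2%, MEIS (TGACAG) in 26.1% against 23.8%, and the SRF CArG box in 0.593% against 0.477%. The CTCF core AGGGGGCGC was in 0.0912% of the members against 0.143% of the stomach-restricted regions. It was in 0.157% of the regions of the control intestine alone and 0.878% of those in all 4 lists. No test was made of these shares, in which neighbouring regions and base composition are shared. The median GC content was 47.3% in the members, 45.3% in the stomach-restricted regions and 50.3% in the regions in all 4 lists, and soft-masked repeats covered over 50% of the window in 4.58%, 3.32% and 3.60% of them.

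**Figure D3:**
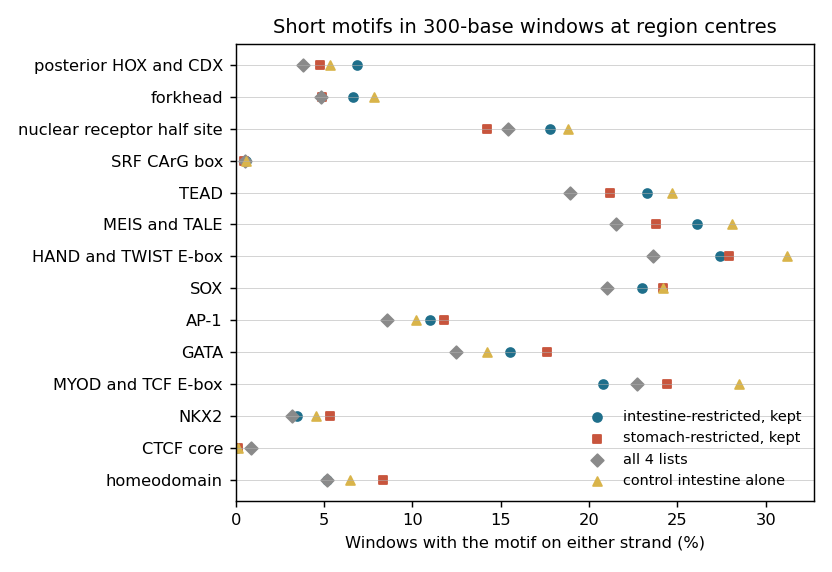
Points give the share of 300-base windows (x axis, in percent) that held each of 14 short motifs (y axis) on either strand, in the intestine-restricted, stomach-restricted, all-4-list and control-intestine-alone regions. Motifs are ordered by the ratio of the intestine-restricted to the stomach-restricted share, from the posterior HOX and CDX motif at 6.89% against 4.77% to the homeodomain motif at 5.18% against 8.36%.

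To ask how RNA differed beside these regions, each region was linked to the tested gene whose start was nearest to its centre within 50 kb. This tied 1795 members (40.9%) to 1614 genes, of which 1454 had 1 member, 144 had 2 and 16 had 3 or more. Between the control organs, 48 linked genes (2.97%) were higher in the intestine (adjusted p under 0.05 and log2 fold change above 1 by the edgeR quasi-likelihood F-test over 16218 genes), where 1.68% of all tested genes were called. Another 59 linked genes (3.66%) were higher in the stomach, where 3.39% of all tested genes were called. Of the genes linked to stomach-restricted regions, 2.20% were intestine-higher and 6.45% stomach-higher. For genes linked to regions of the control intestine alone the shares were 3.19% and 3.02%. In bulk RNA of this kind, fewer cells of a type and less RNA per cell cannot be told apart.

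Beside stronger members the share of genes higher in the control intestine was 33 of 811 (4.07%) where both −log10 q values reached 2, and 11 of 195 (5.64%) where both reached 4, with 33 and 6 genes called higher in the stomach. In the KO organs the same sets had 26 (3.21%) and 7 (3.59%) genes higher in the intestine and 34 (4.19%) and 10 (5.13%) higher in the stomach, beside 1.46% and 2.94% of all tested genes. Within 10 kb of the start the control count was 16 of 362 (4.42%), with 10 higher in the stomach. Counted by region, 3.12% of linked members lay beside an intestine-higher gene, against 2.51% of all linked merged regions, 2.07% of the stomach-restricted ones and 3.43% of those in the control intestine alone. For stomach-higher genes the share was 3.68%, against 4.27%, 6.86% and 3.28%. Of the 273 genes higher in the control intestine, 48 (17.6%) were linked to a member, compared with 59 of 549 (10.7%) for the stomach and 9.95% of all genes tested. The median log2 fold change of the linked genes was 0.028, and that of all tested genes 0. Both counts fell without any single control library, in fits that leave a group with a single library. The share of all tested genes called in those fits is not given here, so the fall is not shown to be particular to the linked genes.

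The same comparison between the *Eed* KO organs used other libraries. There 44 linked genes (2.73%) were higher in the intestine, beside 1.46% of all tested genes, and 59 (3.66%) in the stomach, beside 2.94% of all. Of the 48 genes higher in the control intestine, 26 (54.2%) also passed the test in the KO, which is 59.1% of the 44 called there, and 45 had the same sign. Of all 273 genes higher in the control intestine, 140 (51.3%) passed in the KO, with medians of 1.89 and 1.24. For the 48, the median log2 fold change was 1.80 in the control organs and 1.17 in the KO organs. For the 59 genes higher in the control stomach, 38 (64.4%) also passed in the KO, all 59 kept the sign, and the medians were -2.24 and -1.64, while of all 549 such genes 298 (54.3%) passed, with medians of -1.95 and -1.32. The KO stomach count fell without any single KO library, and the KO intestine count fell except without KO intestine replicate 1. These fits too leave a group with a single library, and the share of all genes called in them is not given here.

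**Figure D4:**
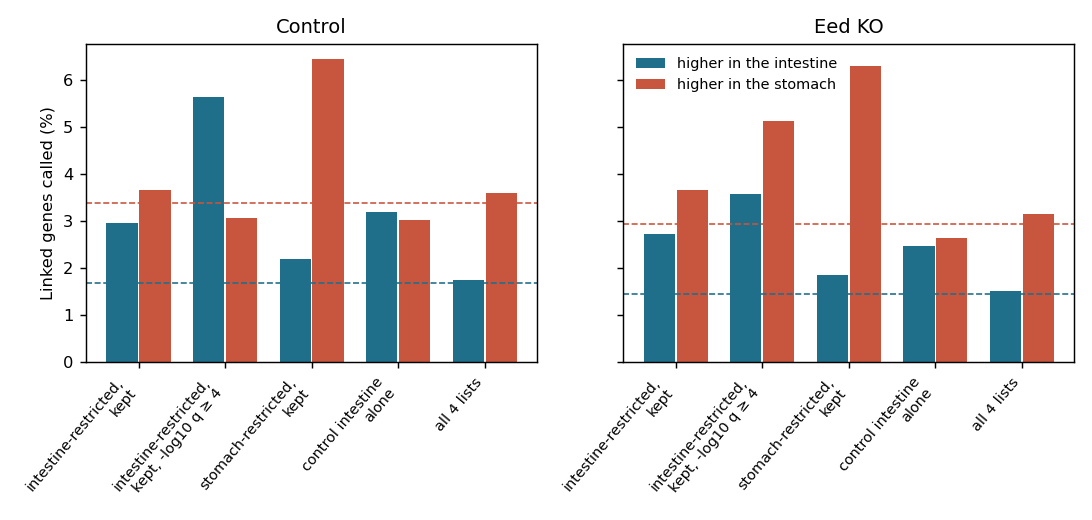
Bars give the share of linked genes (y axis, in percent) called higher in the intestine (blue) or in the stomach (red) for 5 sets of regions (x axis), in the control organs (left) and the *Eed* KO organs (right); dashed lines are the shares of all 16218 tested genes. In the control organs the intestine-restricted regions reach 2.97% for intestine-higher genes, above the line at 1.68%, and 3.66% for stomach-higher genes, near the line at 3.39%.

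*Nkx2-3*, a homeobox gene of intestinal and splenic mesenchyme, was the only linked gene of a list of 30 intestinal regulators, 29 of them tested. For comparison, 9.95% of all tested genes were linked, and 2 of 18 listed gastric regulators. Of the 29 tested intestinal regulators, 15 were higher in the control intestine and 4 in the control stomach, beside 1.68% and 3.39% of all tested genes. *Nkx2-3* stood at 153 and 180 CPM in the control intestine and 2.06 and 0.204 CPM in the control stomach. In the *Eed* KO it stood at 137 and 143 CPM in the intestine and 18.6 and 25.2 CPM in the stomach. All intestinal libraries were above all stomach libraries, and the KO stomach libraries were above those of the control stomach. The log2 fold change between organs was 7.24 ± 0.67 (SE) in the controls, with an adjusted p of 0.0011 by edgeR, and 2.68 ± 0.52 in the KO, with an adjusted p of 0.025. The KO call was lost without KO stomach replicate 1 (2.47) or replicate 2 (2.92), with DESeq2 (2.68) and under scaling to spike-in totals (2.36). Its region, chr19:43643007-43643350, lay between genes, 30853 bp downstream of the start, with fold enrichments of 3.72 and 3.90, and was 1 of 9 merged regions linked to the gene, 4 of them in all 4 lists.

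*Mab21l2*, a developmental gene of the male-abnormal-21 family, had 2 members. Intestinal libraries stood at 519 and 597 CPM in the controls and 429 and 424 CPM in the KO, and stomach libraries at 3.45 and 0.255 CPM in the controls and 9.36 and 15.5 CPM in the KO. In the controls, no overlap between the organs was a condition for naming the gene, and the KO organs did not overlap either. The log2 fold change was 8.27 ± 0.84 in the controls and 5.10 ± 0.71 in the KO, with adjusted p of 0.0016 and 0.0076 by edgeR, and the KO call was lost without KO stomach replicate 1 (4.78). The wider region, chr3:86555613-86559239, was the widest of all members at 3627 bp and lay in an intron of *Lrba*, 8797 bp upstream of the *Mab21l2* start. The other, chr3:86541171-86542625, overlapped an exon of *Lrba* 6731 bp downstream. The gene had 6 linked regions, 3 of them in all 4 lists.

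*Glp2r*, the receptor of the gut hormone GLP-2, stood at 25.6 and 28.2 CPM in control intestines and 0.464 and 0.357 CPM in control stomachs. Without *Eed* the intestinal libraries had 17 and 13.8 CPM and the stomach libraries 0.402 and 0.439 CPM, so the KO organs did not overlap. In the controls, no overlap was again a condition for naming the gene. The organ difference was 6.03 ± 0.21 on the log2 scale in the controls and 5.18 ± 0.21 in the KO, with adjusted p of 2.5e-05 and 0.00018 by edgeR. Its region, chr11:67731295-67733366, lay in an intron of the gene, 38823 bp from the start, with fold enrichments of 3.47 and 3.98.

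Signalling genes were among the other genes higher in the control intestine. *P2ry14*, a receptor of UDP-sugars, was 3.7 ± 0.40 higher on the log2 scale, at 4.28 ± 1.52 CPM against 0.325 ± 0.00892 CPM (SD, n = 2). *Bmp3*, a BMP family ligand, was 3.18 ± 0.45 higher, at 39.1 and 43.7 CPM against 2.98 and 6.09 CPM, and in the KO organs it was at 14.9 and 29.1 CPM against 5.90 and 10.4 CPM, a difference that did not pass the edgeR test (adjusted p = 0.10). *Ntsr1*, a neurotensin receptor, was 2.12 ± 0.16 higher with 45.2 ± 2.67 CPM against 10.4 ± 1.92 CPM. *Rgs7bp*, which anchors RGS proteins at the membrane, was 2.25 ± 0.27 higher, at 4.97 and 5.52 CPM against 1.16 and 1.04 CPM. In the KO organs *P2ry14*, *Ntsr1* and *Rgs7bp* again passed the edgeR test, with log2 fold changes of 3.49 ± 0.53, 1.60 ± 0.15 and 1.61 ± 0.25. In the KO, *P2ry14* lost the call without either KO stomach library (3.48 without replicate 1 and 3.51 without replicate 2), and *Rgs7bp* lost it without replicate 1 (1.32).

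The remaining named genes on this side act in transcription, metabolism and the matrix. *Sall1*, a zinc finger transcription factor gene with 2 members, was 3.16 ± 0.35 higher in the control intestine, at 6.31 ± 1.06 CPM against 0.692 ± 0.282 CPM, but in the KO it stood at 23.0 ± 5.69 CPM against 10.3 ± 2.46 CPM, which missed the edgeR threshold (adjusted p = 0.052). *Ppargc1a*, a coactivator of mitochondrial genes, was 2.21 ± 0.18 higher in the controls, at 22.6 and 23.2 CPM against 4.35 and 5.53 CPM. *Anxa1*, an annexin, was 2.51 ± 0.21 higher and *Sptssb*, a subunit of serine palmitoyltransferase, was 2.40 ± 0.23 higher, and both also passed in the KO at 2.1 ± 0.20 and 2.57 ± 0.23. *Hmcn2*, a hemicentin of the matrix, was 3.50 ± 0.77 higher but was no longer called without any 1 of the 4 control libraries (3.08 to 4.14). In the KO organs *Hmcn2* stood at 19.8 and 86.8 CPM against 3.89 and 8.47 CPM. The regions beside these 5 genes had fold enrichments of 2.52 to 3.61 in the control intestine and 2.60 to 3.97 in the KO intestine.

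**Figure D5:**
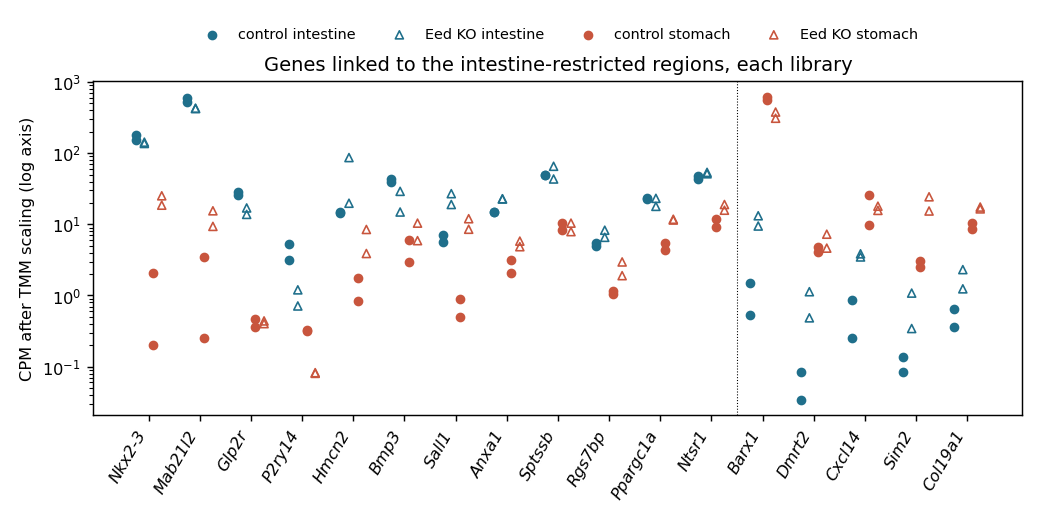
Points are single libraries, at their CPM after TMM scaling (y axis, log), for 12 linked genes higher in the control intestine (left of the dotted line) and 5 higher in the control stomach (right of it). Filled circles are control and open triangles *Eed* KO, blue intestine and red stomach; *Nkx2-3* runs from 0.204 CPM in a control stomach library to 180 CPM in a control intestine library, and *Barx1* from 0.534 to 626 CPM the other way.

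Other intestine-restricted regions lay beside genes of the stomach. *Barx1*, the homeobox gene of stomach mesenchyme, stood at 626 and 557 CPM in the control stomach and 0.534 and 1.48 CPM in the control intestine. In the *Eed* KO the stomach libraries had 379 and 310 CPM and the intestinal ones 9.47 and 13.2 CPM. The log2 fold change of intestine against stomach was -9.23 ± 0.41 in the controls and -4.93 ± 0.32 in the KO, with adjusted p of 5.9e-05 and 0.00061 by edgeR. Its region, chr13:48697388-48697561, lay between genes 34476 bp downstream of the start with fold enrichments of 2.71 and 2.90, and was 1 of 13 regions linked to the gene, 8 of them in all 4 lists. Of 18 gastric regulators in a list, *Six2* was the other linked one, at 197 and 149 CPM in the control stomach and 5.76 and 13.1 CPM in the control intestine.

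Of the other stomach-higher genes named, *Dmrt2*, a DM domain transcription factor gene, had a log2 fold change of -6.11 ± 0.60 in the controls and -2.86 ± 0.41 in the KO. The chemokine gene *Cxcl14* had -5.03 ± 0.62 and -2.20 ± 0.50, the latter lost without any 1 of the 4 KO libraries (-2.29 to -2.09). *Sim2*, a bHLH-PAS factor gene, had -4.64 ± 0.64 and -4.81 ± 0.47, the former lost without control intestine replicate 1 (-4.31). *Col19a1*, a collagen gene with 2 members in its introns, had -4.27 ± 0.36 and -3.26 ± 0.31. All 4 genes passed the edgeR test in both genotypes.

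Predicted gene models aside, 2 genes had 4 members and others had 3. *Rbms3*, an RNA-binding protein gene, and *Frs2*, an adaptor of FGF receptors, were those with 4. *Rbms3* lay between 106 and 201 CPM in the 8 embryonic libraries and *Frs2* between 81.1 and 91.7 CPM. With 3 members each, *Srp9*, of the signal recognition particle, lay between 54.2 and 71.4 CPM, *Mta3*, of the NuRD complex, between 26.9 and 34.1 CPM, *Dctd*, a deaminase of nucleotide metabolism, between 35.7 and 51.4 CPM, *Dtna*, a dystrobrevin, between 5.08 and 11 CPM, and *Selenbp2* between 1.02 and 1.94 CPM. These 7 genes passed the organ test in neither genotype. *Lef1*, a nuclear effector of Wnt signalling with 3 members, was the exception, at 3.85 and 3.06 CPM in the control stomach and 0.197 and 0.505 CPM in the control intestine. Its log2 fold change was -3.33 ± 0.40 in the controls (adjusted p = 0.0032 by edgeR). The widest of its regions, chr3:131077661-131080558, spanned 2898 bp between genes with fold enrichments of 3.56 and 3.65.

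Loss of *Eed* was then compared with control within each organ. In the intestine, where the regions were open in both genotypes, 43 linked genes (2.66%) were higher in the KO and 2 (0.124%) lower, beside 2.38% and 0.228% of all tested genes. For the stomach, where neither genotype had a peak, 86 (5.33%) were higher and 12 (0.743%) lower, beside 4.84% and 0.808% of all. These shares were close to those of all genes. The genes linked to stomach-restricted regions had 3.30% higher in the KO intestine and 6.00% in the KO stomach. The count of genes higher in the KO intestine fell most without control intestine replicate 1. It also fell without its replicate 2 or KO intestine replicate 2, but not without KO intestine replicate 1. In the stomach both counts fell without any single library. Each of these fits leaves a group with a single library, and the share of all genes called in them is not given here.

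Of the linked genes, *Dmrt2*, *Pmaip1*, *Barx1*, *Cdh22* and *Cdh5* had the largest increases in the KO intestine, among those called that averaged 1 CPM or more and whose groups did not overlap. *Pmaip1*, a BH3-only gene of apoptosis, rose from 0.197 and 0.202 CPM to 2.37 and 2.60 CPM, a log2 fold change of 3.62 ± 0.24 (adjusted p = 0.00094 by edgeR). *Barx1* rose by 3.53 ± 0.37 and *Dmrt2* by 3.66 ± 0.69, and the latter was not called without control intestine replicate 1 (4.46), its replicate 2 (3.22) or KO intestine replicate 1 (2.92). The cadherin gene *Cdh22*, with 2 members, rose by 3.40 ± 0.46. *Cdh5*, the cadherin of endothelium, rose by 2.80 ± 0.35, from 1.43 and 1.82 CPM to 10.7 and 11.9 CPM. Neither *Cdh22* nor *Cdh5* was called without control intestine replicate 1 (3.16 and 2.63) or replicate 2 (3.64 and 2.97). *Pmaip1*, *Cdh5* and *Cdh22* were also called higher in the KO stomach, by 4.24 ± 0.20, 3.70 ± 0.40 and 2.44 ± 0.36. There the *Cdh22* call was lost without KO stomach replicate 2 (2.22), control stomach replicate 1 (2.27) or its replicate 2 (2.63), and with 1 RUVg factor (1.40). *Barx1* (-0.78) and *Dmrt2* (0.42) were not called in the KO stomach. The summed level of 6 endothelial markers, *Cdh5* among them, was 15.4 and 20.5 CPM in the control intestine and 48.6 and 49.4 CPM in the KO intestine, with 2 of the 6 called higher and none at 0 in these libraries, and their part in the result was not tested. On the lower side, *P2ry14* fell by 2.16 ± 0.36 on the log2 scale, from 3.20 and 5.35 CPM to 0.712 and 1.20 CPM, and was not called without control intestine replicate 1 (-2.49), its replicate 2 (-1.75) or KO intestine replicate 1 (-1.83). The call was also lost with 1 RUVg factor (-2.63), and scaling to spike-in totals took the value to -0.16.

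Promoter members were few and their genes mostly low. Only 16 tested genes had a member within 1000 bp of the start. Of these, *Ldb3*, a Z-disc gene of muscle with 2 members, was higher in the control intestine, at 3.99 and 3.7 CPM against 1.33 and 1.91 CPM. Its log2 fold change was 1.24 ± 0.29 (adjusted p = 0.047 by edgeR). It was the only gene called (6.25%) and none was lower, beside 1.68% and 3.39% of all tested genes, so 16 genes are too few to compare. The *Ldb3* call was lost without any 1 of the 4 control libraries (lowest without control stomach replicate 1, highest 1.53 without its replicate 2). In the KO organs *Ldb3* again passed, at 1.49 ± 0.29, and lost the call without KO stomach replicate 1 (1.53), its replicate 2 (1.46) or KO intestine replicate 2 (1.13). The most enriched promoter members lay at *Alpk2*, *Ctla2a*, *Ndel1*, *Ldb3*, *Amz1*, *Ppbp*, *Dnah17* and *Pi16*. Except for *Ndel1*, a dynein regulator at 41.1 to 53.5 CPM, and *Ldb3*, these genes were at or under 1.35 CPM in every embryonic library. *Ctla2a*, a cysteine protease inhibitor, had 14 counts in the control intestine and none in the control stomach. This was at least 5.16-fold higher against a floor of 3 counts over the group, but it did not pass the edgeR test (adjusted p = 0.13). The *Ctla2a* member was stronger in the KO intestine (5.55) than in the control (2.77).

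In the adult intestine, 1305 of the linked genes were tested. In the KO, 164 (12.6%) were higher and 147 (11.3%) lower, beside 12.3% and 7.23% of 15039 genes tested. Genes linked to stomach-restricted regions had 11.6% and 11.3%, and those linked to regions of the control intestine alone 13.1% and 10.2%. The adult libraries were fitted alone, since the kit and counting differed from the embryonic ones. Of the 48 linked genes higher in the control embryonic intestine, 37 were tested in the adult, and 14 were lower and 10 higher in the adult KO. Of the 12 named among them, 10 were tested. *Nkx2-3*, *Mab21l2*, *Glp2r*, *P2ry14*, *Hmcn2* and *Bmp3* were lower, with log2 fold changes of -1.36 ± 0.18, -1.80 ± 0.25, -1.56 ± 0.44, -1.44 ± 0.21, -1.90 ± 0.24 and -2.47 ± 0.46 by edgeR. *Rgs7bp* was higher, at 1.54 ± 0.18, and *Anxa1* (-0.89), *Sptssb* (0.43) and *Ppargc1a* (0.82) were not called. The promoter gene *Ldb3* was also higher, at 1.60 ± 0.32. Among the 11 promoter genes tested in the adult, 7 were higher in the KO, including *Pi16*, a fibroblast gene, at 23.6 and 25.2 CPM in the controls and 61.8 and 141 CPM in the KO.

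Few genes of the signalling lists were both linked and called between the control organs. The counts of linked genes below stand beside 9.95% of all tested genes linked. Of 21 Wnt ligands and modulators tested, 5 were linked (*Wnt5a*, *Wnt11*, *Sfrp1*, *Dkk3* and *Frzb*), and *Wnt11*, a non-canonical ligand, was higher in the control stomach with a log2 fold change of -1.04 ± 0.21 (adjusted p = 0.029 by edgeR), at 14.2 and 11.5 CPM against 6.68 and 5.75 CPM. *Wnt5a*, another such ligand, stood at 474 and 381 CPM in the control intestine and 276 and 366 CPM in the control stomach, a difference that did not pass. *Frzb* was higher in the control intestine by 0.85 ± 0.18 (adjusted p = 0.035 by edgeR), under the fold threshold. Of 17 BMP genes 2 were linked, *Bmp3* and *Id2*, and *Id2*, a target of BMP signalling, was at 114 and 110 CPM against 124 and 104 CPM. Of 13 FGF genes, *Spry1*, *Spry4*, *Dusp6* and *Etv5*, which are feedback inhibitors or targets of the pathway, were linked, and none was called between organs. *Spry4* (0.76, adjusted p = 0.036 by edgeR) and *Etv5* (0.67, adjusted p = 0.019) were higher in the control intestine but under the fold threshold. *Spry1* (0.03) and *Dusp6* (0.25) passed neither threshold. Of 11 Hedgehog genes, the co-receptor gene *Cdon* was linked, at 274 and 275 CPM against 291 and 257 CPM.

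Markers of cells other than mesenchyme were also linked. *Ednrb*, the endothelin receptor of enteric neural crest with 2 members, was at 201 and 188 CPM in the control intestine and 49.0 and 57.6 CPM in the control stomach, a log2 fold change of 1.87 ± 0.27 (adjusted p = 0.0067 by edgeR). The summed level of the 7 enteric neural crest markers was 208 and 195 CPM against 55.3 and 66.7 CPM, so *Ednrb* made up most of it, and *Sox10*, a defining factor of that lineage with 2 members, was at 0.348 to 1.15 CPM in all 8 libraries. *Cdh5* and *Tek* of the endothelium, *Cdh1* and *Krt8* of the epithelium and *Krt19* of the mesothelium were linked as well, and of these *Cdh5* was higher in the control intestine, at 1.43 and 1.82 CPM against 0.493 and 0.433 CPM, a call lost without any 1 of the 4 control libraries (1.63 to 1.98). None of the genes linked to members was a marker of mesenchyme, smooth muscle, leukocytes, pancreas or erythroid cells.

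Whether the organ difference itself differed between the genotypes was tested by the interaction of organ and genotype, at an adjusted p under 0.2 by edgeR. Of the 1614 linked genes, 5 (0.31%) were called in the positive and 2 (0.124%) in the negative direction, beside 0.271% and 0.191% of all tested genes. They included *Nkx2-3*, at 4.57 with an adjusted p of 0.12, and *Barx1*, at -4.31 with an adjusted p of 0.031. The *Nkx2-3* call was lost without KO stomach replicate 2 (4.33), control intestine replicate 1 (4.68) or its replicate 2 (4.44). The *Barx1* call was lost under scaling to spike-in totals (-3.94). In *Nkx2-3* and *Barx1* the organ difference was smaller without *Eed* than with it, which did not hold for *Ebf2* and *Kcnh1*, also among those called.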

How the data were processed

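RNA-seq counts and ATAC-seq peaks of embryonic stomach and intestine mesenchyme, and RNA-seq counts of adult intestine, were used. The authors trimmed reads with Trimmomatic, aligned RNA with STAR to GRCm38/mm10 and counted reads per GENCODE vM4 gene name with featureCounts. These counts were deposited without normalization, with 99 spike-in transcripts. ATAC reads were aligned by the authors with BWA-mem, replicates were pooled and broad peaks were called with MACS2 2.1.2. Each deposited peak has a fold enrichment (a ratio over local background) and a −log10 q. The deposited lists hold no read counts, so the depth of the ATAC libraries is unknown here and differences in it between lists cannot be told apart from presence or absence of a peak. Between 13.5% and 20.0% of the peaks of a list had a −log10 q under 2.

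Peaks were merged with bedtools 2.31.1. Counts were scaled by TMM, filtered with filterByExpr and tested in edgeR 4.0.16 (R 4.3.3) by quasi-likelihood F-tests, with 4 group means for 8 embryonic and 2 for 4 adult libraries, and Benjamini-Hochberg adjustment. Calls needed an adjusted p under 0.05 (interaction 0.2) and a log2 fold change above 1. Each standard error is the fold change divided by the root of its F value. A count of 0 in the smallest embryonic library allows up to 0.0992 CPM, which covers counting error only. p-values measure the spread between the libraries, which may be technical where they share embryos. Sequences and windows came from RefSeq GRCm38.p6, the same build.

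The members and gene lists were chosen with earlier results of these data known. Named genes were linked intestinal regulators, up to 12 genes higher in the control intestine and 5 higher in the control stomach by size of change (average of 1 CPM or more, organs not overlapping), the 8 genes with most members (predicted gene models left out throughout), up to 5 genes each way changed by *Eed* loss in the intestine, 8 promoter genes and genes of the fixed lists. Alternatives were DESeq2 1.42.0, other scalings, filters, thresholds, link distances, replicate blocks and leaving out single libraries.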

Additional observations from a re-analysis of the deposited data

Results flagged for a closer look

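For 7 linked genes the organ difference itself differed between the genotypes (control intestine minus control stomach, less the same in the *Eed* KO, adjusted p under 0.2 and above 1 in size by edgeR). Of all tested genes 0.271% were called in the positive and 0.191% in the negative direction, and 5 and 2 of 1614 linked genes were. For *Nkx2-3* the difference was 4.57 (adjusted p = 0.12), from 7.24 in the controls to 2.68 in the KO. For *Barx1* it was -4.31 (adjusted p = 0.031), from -9.23 to -4.93, and for *Bmpr1b*, a BMP receptor gene, -1.23 (adjusted p = 0.12), from -4.08 to -2.85. In size, the organ difference was smaller in the KO for all 3, as it was for the next 2. *Ppargc1a* had 1.39 (adjusted p = 0.12), from 2.21 to 0.82, and *Gsg1l*, which encodes a partner of AMPA receptors, had 2.00 (adjusted p = 0.17), from 1.89 to -0.10.

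In 2 genes the KO stomach rose above the other groups. *Ebf2*, a transcription factor gene, stood at 11.1 and 14.9 CPM in the KO stomach and at 0.306 to 3.25 CPM elsewhere, with a difference of 3.21 (adjusted p = 0.073). *Kcnh1*, a potassium channel gene, stood at 6.62 and 9.65 CPM in the KO stomach and at 1.69 to 2.55 CPM elsewhere, with a difference of 2.11 (adjusted p = 0.12). Of the 7, only *Barx1* was called without each single library, and it was not called under scaling to spike-in totals (-3.94).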

How the results depend on the processing

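Dropping peaks of every list whose −log10 q was under 5 gave 2330 regions by the same rule, of which 255 overlapped one of the 4384 members and the rest came in as weak stomach peaks were dropped. Asking this of the intestinal peaks alone left 255 members, and a reciprocal overlap of 50% left 2798. Counts below are linked genes, higher then lower, and not every count is listed for each setting. The share of all tested genes called in each setting is not set beside them. A change in a count is therefore not shown to be particular to the linked genes. Settings that change the regions or links also change the number of linked genes, so these counts cannot be compared with the shares above. With peaks of every list held to that threshold of 5, the counts were 49 and 35 between control organs and 35 and 33 between KO organs. In the KO intestine 20 and 1 changed, 3 were positive for the interaction, 103 and 92 changed in the adult and 4 promoter genes were higher. At a threshold of 2, 1 was lower in the KO intestine. With the 255 members the counts were 5 and 2, 2 and 6, 2 and 0 in the KO intestine, 7 and 0 in the KO stomach, 1 and 0 for the interaction and 0 for promoter genes. Reciprocal overlap gave 1 lower in the KO intestine, 7 lower in the KO stomach and 1 negative interaction. Links within 10 kb gave 16 and 10, 14 and 11, 10 higher in the KO intestine, 20 and 1 in the KO stomach, and 2 and 0. Links within 100 kb gave 91 lower in the control organs, 67 higher in the KO organs, 4 lower in the KO intestine, 130 and 21 in the KO stomach, and 10 and 7. Linking to any annotated gene gave 37 lower in the KO organs and 3 positive interactions. A promoter window of 5000 bp gave 7 and 5 promoter genes.

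DESeq2 gave 68 and 4 in the KO intestine, 18 and 14 interactions and 2 promoter genes higher. Without a low-count filter the counts were 85 and 6, 134 and 21, 16 and 16, and 2. With 1 RUVg factor they were 21 and 9 in the KO intestine, 21 higher in the KO stomach and 15 negative interactions. Scaling to spike-in totals gave 11 and 13 in the control organs, 3 and 11 in the KO organs, 1378 higher in the KO intestine, 1517 and 2 in the KO stomach, and 1 and 0, with the median of all genes moved by 0.30, -0.24, 1.85 and 2.39 on the log2 scale, so the directions of the *Eed* comparisons are relative to the median gene. The causes were not tested.

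The labels do not pair libraries by number. Deviations of same-numbered libraries correlated at 0.265 between control organs, 0.628 between KO organs and as low as 0.047 elsewhere. With the replicate number as a block, 65 and 72 genes were called between control organs, 66 and 5 in the KO intestine, 21 were lower in the KO stomach and 12 and 12 interactions were called. With a block by number within genotype, 75 were higher between control organs, 94 lower between KO organs, and 29 and 19 interactions were called.

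Leaving out 1 library, the counts ranged from 23 to 28 and 26 to 37 in the control organs, 14 to 52 and 30 to 43 in the KO organs, 4 to 48 and 0 to 4 in the KO intestine, 29 to 70 and 3 to 5 in the KO stomach, 0 to 7 and 1 to 5 for the interaction, and 0 for promoter genes; the adult counts ranged from 137 to 165 and 111 to 170. Of 799 alternatives for 72 called values of named genes, 656 kept the call, 143 lost it and none changed direction; 30 losses came from spike-in totals, 11 from RUVg and 2 from DESeq2 (*Nkx2-3* between the KO organs and *Pmaip1* between the control organs).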
